A study of Homo sapiens with 16 samples.

Results

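The regions described here are those at which untreated Hs578T cells carried H3K27ac, the acetylation of lysine 27 on histone H3, in one genotype and not in the other. Hs578T is an established human triple-negative breast cancer cell line. H3K27ac ChIP-seq was made of CRISPR control cells and of cells with Fn14 knocked out (KO), with 2 samples of each genotype, all starved of serum for 8 h and left without TWEAK. Each sample gave 1 list of peaks. A region was control-only where the 2 control lists held a peak and neither KO list did, and KO-only where the reverse was true. Of 49465 regions with a peak in any of these 4 lists, 1242 were control-only and 1117 were KO-only. The whole series held 55219 regions in 16 lists. The other 12 lists came from Hs578T cells of both genotypes given TWEAK at 10 ng/ml for 48 h and from the MDA-MB-231 triple-negative line in the same 4 conditions, and their peaks entered the merge that set the regions' boundaries but not the calls. A merge of the 4 untreated lists alone gave 1285 control-only and 1150 KO-only regions. The KO cells had been made with a lentiviral vector carrying an inducible Cas9 and 2 different guides, and the study lists the primers that genotyped them among those for CRISPR clones, without saying how many clones the Hs578T KO cells came from. Differences between the genotypes and differences between the cell populations that carry them therefore cannot be told apart.

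Fn14, the product of TNFRSF12A, is a small receptor of the tumour necrosis factor receptor superfamily. Its ligand TWEAK recruits TRAF adaptors to its short intracellular tail, which leads to NF-κB and MAP kinase signalling, and Fn14 can also signal at high density without added ligand. H3K27ac is deposited by the acetyltransferases p300 and CBP at active promoters and enhancers, so its loss or appearance far from a gene start is commonly read as a change in enhancer state. The comparison made here asks how the acetylation landscape of the KO cells differed before any TWEAK was given.

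At TNFRSF12A itself (ENSG00000006327.14, chr16:3018445-3022383, plus strand, hg38), the targeted gene, all 4 lists held a peak over the start site. Its fold enrichment over background was 34.02 and 32.6 in the control lists and 21.8 and 22.3 in the KO lists. The genotypes did not overlap, with means of 33.3 ± 1.02 (SD, n = 2) and 22.1 ± 0.301 (SD, n = 2), 1.51-fold higher in control cells (exact permutation test, two-sided, p = 0.3333, the smallest that 6 arrangements of 4 lists allow). Of the 36779 regions with a peak in all 4 lists, 0.829% had a difference between KO and control as low or lower. After TWEAK the values were 33.3 and 35.2 in control and 19.8 and 22.0 in KO lists. The length covered by the peak was 4669 and 4929 bp in control and 4421 and 4524 bp in KO cells. None of the 7 regions within 50 kb of the gene was control-only or KO-only, so the peak lists do not show a removed promoter, and they do not check the knockout. The study itself picked out the KO cells, those of Hs578T included, by western blot and checked them by Sanger sequencing.

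The 4 lists were of similar size. They held 45358 to 47197 peaks, and the 2 KO lists covered 88.5 and 87.2 Mb against 86.6 and 84.3 Mb in control (exact permutation test, two-sided, p = 0.3333 for a difference of 2.45 Mb). Peak number (p = 0.667) and median fold enrichment (p = 0.667) overlapped between genotypes in the same exact permutation test. All 8 mesenchymal markers, among them VIM, AXL and ZEB1, had a peak within 2 kb of a start in all 4 lists. Of 8 luminal or epithelial markers, ESR1, PGR, FOXA1 and CDH1 had none in any list, whereas GATA3, EPCAM, GRHL2 and ELF3 had one in all 4. The fold enrichment at those 4 genes summed to 22.4 and 22.9 in control and 30.6 and 27.6 in KO lists. That at the 8 mesenchymal markers was also higher in KO lists, with sums of 107.2 and 106.5 in control and 116.8 and 112.8 in KO. Of 6 immune markers, CD14 alone was marked, in both KO lists, at a fold enrichment of 2.63 and 2.74. Of 4 endothelial markers, PECAM1 was marked in all 4 lists. The start of CDH5, an endothelial cadherin, gave 27.9 in control list 1, with no peak in control list 2 or in any KO list, and 23.4 and 25.6 in the control TWEAK lists. The part of other cell types in the results was not tested. Peak lists hold no read counts, so sequencing depth is unknown and a missing peak means only that none passed the caller's threshold.

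The number of genotype-specific regions was set beside the numbers obtained when the same 4 lists are paired across genotypes. Control against KO gave 2359 regions, 4.77% of those with a peak, of which control-only regions made up 2.51% and KO-only regions 2.26%. Setting list 1 of each genotype against list 2 of each gave 889 regions (1.8%), and setting control list 1 and KO list 2 against control list 2 and KO list 1 gave 1067 regions (2.16%). Genotype-specific regions thus outnumbered those of either other grouping. Just outside the definition lay 1909 regions marked in both control lists and 1 KO list, and 1958 marked in both KO lists and 1 control list. These 3 groupings are all that 4 lists allow, and no p-value is attached to the counts.

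**Figure D1:**
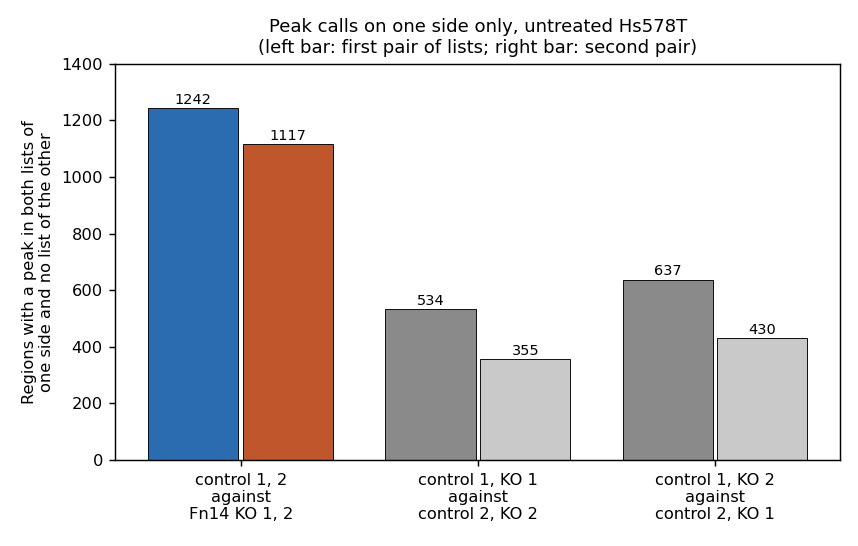
Number of regions (vertical axis) with a peak in both lists of one side and in no list of the other, for the 3 ways of setting 2 of the 4 untreated Hs578T lists against the other 2. Control against Fn14 KO gave 1242 control-only and 1117 KO-only regions, and the other groupings gave between 355 and 637 on a side.

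Most of these regions carried weak peaks. In each member the weaker of its 2 peaks was taken. Its −log10 q-value had a median of 1.87 (quartiles 1.46 and 2.50) in control-only and 1.70 (quartiles 1.41 and 2.25) in KO-only regions, where the lowest values were 1.02 and 1.01. In regions with a peak in all 4 lists, the weakest of the 4 peaks had a median of 9.13. Peaks of the members covered a median of 590.5 and 572 bp, against 1628 bp in shared regions. Only 46 control-only and 34 KO-only regions reached 5 in both lists.

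Sequences are shown for 3 regions among those that differed most and for 1 region that holds an AP-1 motif, alone in this among the 24 strongest regions described next. The first 3 have CG dinucleotides, the sites of DNA methylation, in capitals. The promoter of ZNF582, a gene for a KRAB zinc finger protein, was acetylated in control cells alone. It is shown from 250 bases before to 50 bases after its RefSeq start (GRCh38.p14, chr19:56393485-56393784, minus strand) and holds 30 CG dinucleotides. The other 3 are the central 300 bases of the region on the plus strand of GRCh38. CACNA2D4, at chr12:1811460-1811759, is the strongest KO-only region, and lies at a start site with 13 CG dinucleotides. RASSF10, at chr11:13008609-13008908, is a start-site region that was narrow in control and broad in KO cells, with 18. RNF144A, at chr2:7826013-7826312, is a control-only region 828 kb from the nearest gene start, and there the capitals mark its AP-1 motif, TGANTCA.
ZNF582: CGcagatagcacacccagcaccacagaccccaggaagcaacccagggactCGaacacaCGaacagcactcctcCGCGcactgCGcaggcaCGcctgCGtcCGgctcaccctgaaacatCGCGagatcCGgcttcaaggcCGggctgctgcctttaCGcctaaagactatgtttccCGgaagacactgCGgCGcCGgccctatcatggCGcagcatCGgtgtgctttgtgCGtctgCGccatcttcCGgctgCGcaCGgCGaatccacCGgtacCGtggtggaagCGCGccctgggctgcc
CACNA2D4: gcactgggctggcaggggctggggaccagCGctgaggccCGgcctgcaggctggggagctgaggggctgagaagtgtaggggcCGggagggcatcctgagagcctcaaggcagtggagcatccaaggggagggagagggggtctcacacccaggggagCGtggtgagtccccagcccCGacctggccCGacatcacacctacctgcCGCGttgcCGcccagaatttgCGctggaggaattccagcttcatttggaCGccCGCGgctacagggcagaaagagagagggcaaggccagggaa
RASSF10: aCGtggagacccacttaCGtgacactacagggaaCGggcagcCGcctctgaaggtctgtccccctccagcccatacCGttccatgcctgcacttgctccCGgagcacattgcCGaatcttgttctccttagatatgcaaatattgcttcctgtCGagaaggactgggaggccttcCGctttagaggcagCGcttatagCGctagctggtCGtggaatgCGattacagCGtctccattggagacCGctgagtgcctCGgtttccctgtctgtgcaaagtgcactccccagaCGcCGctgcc
RNF144A: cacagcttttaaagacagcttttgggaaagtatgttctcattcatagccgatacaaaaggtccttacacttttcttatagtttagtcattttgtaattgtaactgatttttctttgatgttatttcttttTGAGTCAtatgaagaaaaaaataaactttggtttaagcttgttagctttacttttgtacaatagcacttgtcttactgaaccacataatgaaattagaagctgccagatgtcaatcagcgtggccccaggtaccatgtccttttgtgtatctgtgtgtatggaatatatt

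The 12 strongest control-only regions had a fold enrichment between 5.78 and 9.42 in the weaker of their control lists and no peak in KO cells. The region ranked first, at chr16:29220015-29222388, gave 9.42 and 10.1 in the control lists. It lies between genes, with the nearest start 175 kb away at NPIPB11, a member of a recently duplicated gene family in which short reads can be hard to place. An intronic region of CLNS1A, which encodes a chaperone of spliceosomal snRNP assembly, gave 7.54 and 6.44. At the ZNF582 promoter the values were 6.57 and 6.88, and the gene was the only one of the 12 at a start site apart from SPANXA1, a cancer-testis gene of a near-identical X-linked family (8.99 and 7.23). The sequences around SPANXA1 are shared with its paralogs, so its values are uncertain.

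Other control-only regions lay far from any start. A region 890 kb from the start of AUTS2, a neurodevelopmental regulator, had a fold enrichment of 7.98 and 7.13. One 330 kb from CNTNAP2, a neurexin-family adhesion protein, had 6.42 and 7.57. A pair of regions 828 and 815 kb from RNF144A, an E3 ubiquitin ligase gene, had 8.69 and 5.78 and, for the nearer one, 6.73 and 5.83. The region nearest to the start of SEPTIN10, at 8.95 and 6.51, lies in an intron of SH3RF3. Of the 12, 8 were more than 100 kb from any protein-coding start, and naming them by the nearest start says nothing of the gene they act on.

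The 12 strongest KO-only regions had a fold enrichment between 5.68 and 12.3 in the weaker of their KO lists. At a start of CACNA2D4, which encodes an auxiliary subunit of voltage-gated calcium channels, peaks of 4607 and 4807 bp in the KO lists had a fold enrichment of 13.7 and 12.3, and neither control list had a peak. The KO-only region next in strength, 330 kb from the start of FSIP2, a gene of the sperm fibrous sheath, gave 11.7 and 11.0. An intronic region of VAC14, the scaffold of the PIKfyve lipid kinase complex, gave 8.93 and 7.88. The KO lists agreed closely at all 3 of these regions.

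Among the other KO-only regions, a region 39.3 kb from INSIG1, which retains the SREBP sterol sensor in the endoplasmic reticulum, had a fold enrichment of 6.68 and 5.91. An intronic region of KDM2B, a histone H3 lysine 36 demethylase, had 7.10 and 6.38. A region in an AGBL4 intron, a gene for a tubulin deglutamylase, had 7.60 and 6.74. The region at a start of FAM135A had 6.30 and 6.87.

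**Figure D2:**
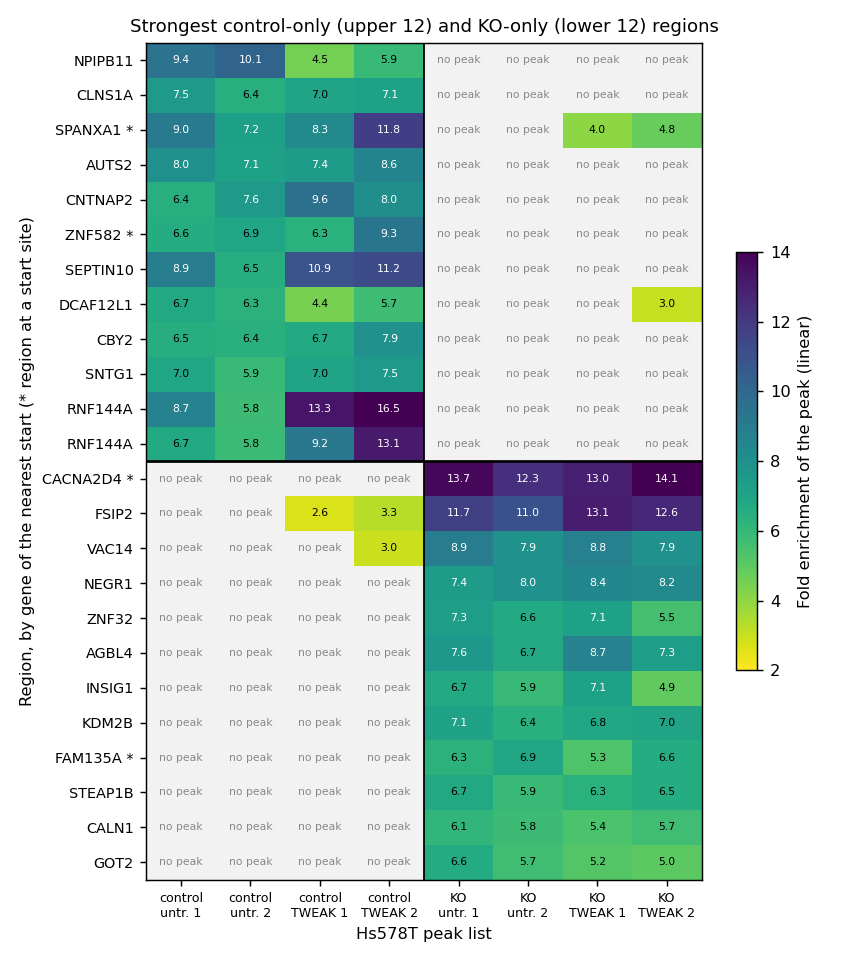
Fold enrichment over background (colour and printed value) of the 12 strongest control-only regions (upper rows) and the 12 strongest KO-only regions (lower rows) in the 8 Hs578T lists. The TWEAK lists, which did not enter the calls, held peaks of the same genotype in all 24 rows, and peaks of the other genotype at SPANXA1, DCAF12L1, FSIP2 and VAC14.

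The Hs578T lists made after TWEAK treatment show how far the differences recurred in other samples of the same cells. Control-only regions had a peak in 59.3% and 66.7% of cases in the 2 control TWEAK lists and in 24.3% and 31.0% in the 2 KO TWEAK lists. For KO-only regions the shares were 15.3% and 21.04% in control and 72.0% and 65.2% in KO TWEAK lists. The genotypes did not overlap in either set. The difference, control minus KO, was 35.3 percentage points in control-only and -50.4 in KO-only regions, where all 49465 regions gave -5.83. The same call, both lists of the one genotype and neither of the other, was made again after TWEAK at 384 control-only regions (30.9%, 95% exact binomial interval 28.4% to 33.6%) and at 435 KO-only regions (38.9%, 36.1% to 41.9%). Over all regions these calls were made at 3.30% and 6.95%. The opposite call was made at 48 and 14 of them. The intervals here and later cover counting error over regions only.

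Recurrence rose with peak strength. Where the weaker −log10 q-value was under 2, the same call returned at 26.7% of 715 control-only and 30.9% of 740 KO-only regions. From 5 upwards it returned at 82.6% of 46 control-only (68.6% to 92.2%) and 70.6% of 34 KO-only regions (52.5% to 84.9%). Of the 12 named regions in each set, 10 and 10 kept the call, and all 24 had peaks in both TWEAK lists of their own genotype. Since TWEAK itself was given in these lists and the cells are the same lines, the recurrence describes these cell populations and not independent knockouts.

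In MDA-MB-231 cells the genotypes overlapped at these regions when untreated. Control-only regions were marked in 34.4% and 49.9% of cases in control and 53.3% and 31.4% in KO lists. KO-only regions were marked in 16.4% and 28.7% in control and 30.1% and 12.6% in KO lists. All 49465 regions were marked in 74.2% and 81.5% in control and 82.6% and 71.7% in KO lists, so both sets were marked less often than regions in general. Control-only regions were more often acetylated than KO-only regions in all 8 lists of this other line. Of the 24 named regions, 7 had a peak in all 8 MDA-MB-231 lists, among them AUTS2 and CBY2 in control-only and KDM2B and STEAP1B in KO-only regions, and 10 had a peak in none.

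**Figure D3:**
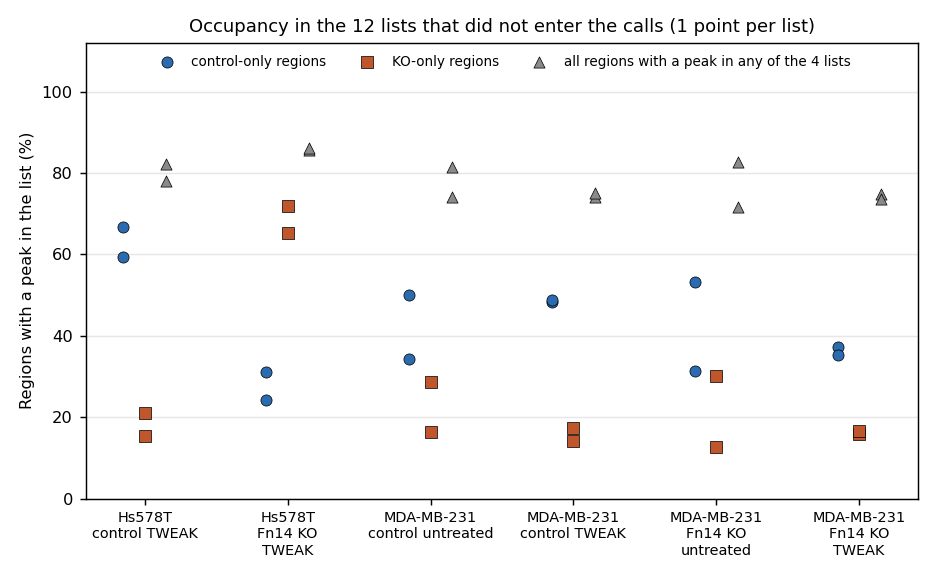
Share of control-only regions (circles), KO-only regions (squares) and all 49465 regions (triangles) that had a peak in each of the 12 lists that did not enter the calls, 1 point per list. In Hs578T TWEAK lists the 2 sets lie far apart and in opposite order by genotype, whereas in MDA-MB-231 lists control-only regions lie above KO-only regions within each list, and the untreated genotypes overlap.

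Genotype-specific regions lay mostly away from gene starts. Within 2 kb of a protein-coding start were 77 control-only regions (6.20%, 4.92% to 7.69%) and 124 KO-only regions (11.1%, 9.32% to 13.1%), against 27.2% of all regions. Control-only regions lay between genes in 47.1% of cases (44.3% to 49.9%) and KO-only regions in 36.3% (33.4% to 39.2%), where all regions gave 34.2%. Introns held 38.6% and 43.3%, against 29.6%. More than 100 kb from any start were 28.9% of control-only and 20.8% of KO-only regions, against 17.2% overall. The regions set apart by the other 2 groupings, which balance the genotypes, lay nearer to the KO-only regions, with 11.96% at starts, 37.4% between genes and 19.2% more than 100 kb away.

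Start-site regions were weak in both sets, with a median lower −log10 q-value of 1.78 in control-only and 1.82 in KO-only regions, and 3 in each set reached 5. The genes given here were chosen after their values were seen. Control-only starts included SPANXN1, a further gene of the SPANX cancer-testis family, GAB1, an adaptor of receptor tyrosine kinases, and MEN1, the tumour suppressor menin, the last with peaks in all 4 TWEAK lists. The KO-only starts included TANK, a TRAF-binding adaptor of NF-κB and interferon signalling, whose region lay 1527 bp from a start and also had a peak in 1 control TWEAK list. They also included GRIN2A, an NMDA receptor subunit gene, which kept both KO TWEAK peaks and had none in control TWEAK lists. The call returned after TWEAK at 17 of 77 control-only and 46 of 124 KO-only starts.

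Along the genome, 199 control-only regions (16.02%, 14.02% to 18.2%) and 278 KO-only regions (24.9%, 22.4% to 27.5%) lay within 100 kb of another member of their set. They formed 91 and 126 stretches, of which 14 and 19 held 3 or more members. The share rises with the number of regions in a set. Per 100 members it was 1.29 percentage points in control-only and 2.23 in KO-only regions, and the 4 sides of the other groupings, with 355 to 637 regions each, gave between 1.33 and 2.06. On this scale the clustering of KO-only regions was just above, and that of control-only regions just below, the range of the groupings that balance the genotypes. At 50 kb control-only regions (0.869) lay within that range (0.739 to 1.41) and KO-only regions (1.43) just above it, and at 500 kb KO-only regions (4.74) lay within it (4.59 to 5.32) and control-only regions (3.79) below. The clustered share levels off as a set grows, so dividing by set size lowers the values of the larger sets, most at 500 kb. The control-only and KO-only sets are the larger ones. Their positions against the range depend on this scale, and another was not tested.

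The stretch with the most members lay at AGBL4 (chr1:49320091-49425340), where 6 of 8 regions were KO-only and none was in all 4 lists. Peaks of the 6 members covered 5544 and 5995 bp in the KO lists and 6419 and 5601 bp in the KO TWEAK lists, with none in the 4 control lists. A second AGBL4 stretch held 3 more, with the named intronic region among them, and all 9 members kept the call after TWEAK. At CACNA2D4 and the neighbouring LRTM2, 4 of 5 regions were KO-only and 1 kept the call. In the stretch nearest to ZNF32, a zinc finger gene, 4 of 5 were KO-only and all 4 kept the call after TWEAK. Its strongest member lay 218 kb from the ZNF32 start. In the stretches nearest to PDGFC, a platelet-derived growth factor, and ANTXR2, an anthrax toxin receptor that binds collagen, 4 members each were weak and 1 of the 4 kept the call. The PDGFC members lay 293 to 389 kb from its start.

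Among control-only regions, the stretch at FGF13 on the X chromosome (chrX:138857004-138991145) held 5 regions, all control-only, of which 4 kept the call after TWEAK. FGF13 is an intracellular fibroblast growth factor homologue. The stretch at CHRM3, a muscarinic acetylcholine receptor gene, held 4 in 26.95 kb, and 3 kept the call. Stretches of 3 lay beside AUTS2 and RNF144A, where all 3 kept the call, and beside DCAF12L1, where 2 did.

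By chromosome, control-only regions were most frequent on chromosome 14, at 3.93% of its 1525 regions, where KO-only regions made up 1.57%. That is 60 against 24 regions, the most uneven ratio of any chromosome in this direction. Chromosome 16, which carries TNFRSF12A, was the most uneven in the other direction, with 29 control-only (1.93%) and 50 KO-only regions (3.33%). Chromosome 19 had the smallest share of both sets together, at 1.71% and 1.25%. Differences in DNA copy number between the cell populations were not tested.

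**Figure D4:**
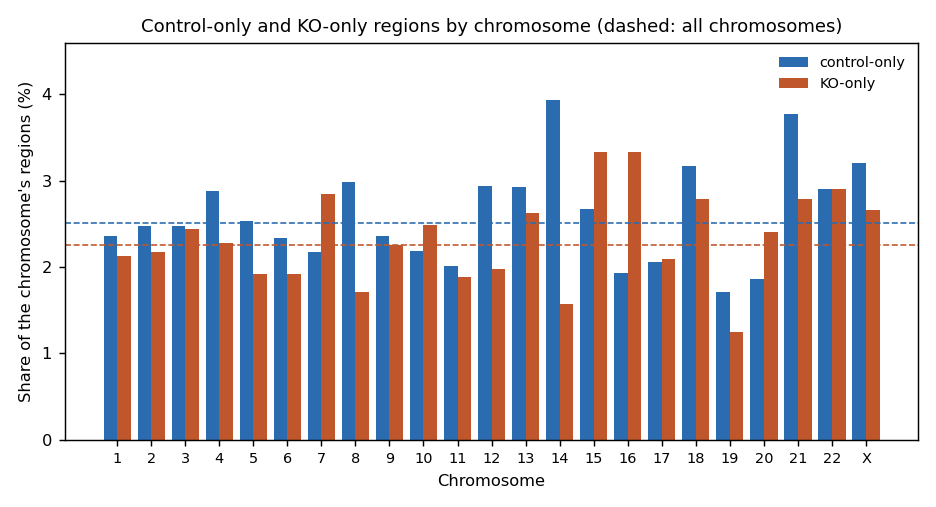
Control-only and KO-only regions as a share of the regions of each chromosome with a peak in any of the 4 lists (vertical axis, percent), with the shares over all regions, 2.51% and 2.26%, as dashed lines. Chromosome 14 is the most uneven towards control-only regions and chromosome 16 the most uneven towards KO-only regions.

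Regions present in all 4 lists also showed local differences in fold enrichment. Over 36779 such regions the median difference, KO minus control, was 0.03 on the log2 scale. Windows of 15 neighbouring shared regions were then scanned for the widest gap between the genotypes, and the windows named here are described because they were the extremes. The widest gap with lower KO values lay at PTPN3, a tyrosine phosphatase gene, and PALM2AKAP2 (chr9:109349062-110059278). Relative to each list's median, the window stood at 0.31 and 0.22 in control and at -0.66 and -0.55 in KO lists. The TWEAK lists gave 0.02 and -0.08 in control and -0.56 and -0.59 in KO cells, again without overlap.

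A window on chromosome 4 over SLC7A11, the cystine transporter subunit xCT, NOCT and ELF2 stood at 0.79 and 0.67 in control and 0.01 and 0.14 in KO lists. After TWEAK it stood at 0.53 and 0.58 in control and -0.04 and 0.24 in KO lists. In the opposite direction, a window on chromosome 3 that holds TFRC, the transferrin receptor that imports iron, stood at -0.05 and -0.03 in control and 0.60 and 0.56 in KO lists, and at -0.30 and -0.40 against 0.68 and 0.55 after TWEAK. A window over CDC42BPA, a kinase of the actin cytoskeleton, stood at -0.78 and -0.73 in control and -0.12 and 0.12 in KO lists. There the TWEAK lists overlapped, at -0.34 and -0.17 against -0.18 and 0.04. After TWEAK some of the 15 regions of a window had no peak. Control TWEAK lists held peaks at 12 and 12 regions of the CDC42BPA window, against 15 and 14 in KO. At SLC7A11 the numbers were 13 and 14 against 15 and 15, and at TFRC 14 and 14 against 15 and 15. The effect of the missing peaks on these values was not tested.

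Among the 36779 regions with peaks in all 4 lists, peaks were at least 2 times wider in both control lists than in either KO list at 114 regions (0.31%) and wider in KO lists at 161 (0.438%). At an intronic region of CYP1B1, a cytochrome P450 that oxidises oestrogens and aryl hydrocarbons, 10.2 kb from its start, peaks covered 500 and 371 bp in control and 4521 and 4285 bp in KO lists. After TWEAK they covered 308 and 455 bp in control and 4456 and 4436 bp in KO lists again. The RASSF10 start, which belongs to a gene for a Ras association domain protein, was covered by 225 and 361 bp in control and by 1805 and 1887 bp in KO lists. After TWEAK the start had no control peak and 1795 and 1741 bp in KO lists.

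The start of WNT7B, a Wnt ligand, was covered by 583 and 363 bp in control and 3449 and 3641 bp in KO lists, but the KO TWEAK lists disagreed, at 3008 and 268 bp. Regions at NTRK3, the receptor of neurotrophin-3, and at the BLID start were also among the 8 with the largest ratios.

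Wider in control cells were a region 159 kb from KIF20B, a mitotic kinesin, with 1788 bp in both control and 243 and 359 bp in KO lists, and the start of SPANXD, at 2113 and 2077 against 451 and 206 bp. SPANXD has near-identical paralogs. The region named for PGAM2 lies in the neighbouring gene POLM, a DNA polymerase, and covered 1308 and 1652 bp against 214 and 204 bp. An exonic region of NDRG1, a stress-response gene, was 2968 and 2324 bp in control and 547 and 593 bp in KO lists, yet had no peak in either control TWEAK list. In the TWEAK lists the genotypes lay in the same order without overlap at 58 of the 114 regions wider in control (50.9%, against 16.6% of all shared regions) and at 111 of the 161 wider in KO (68.9%, against 45.1%).

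**Figure D5:**
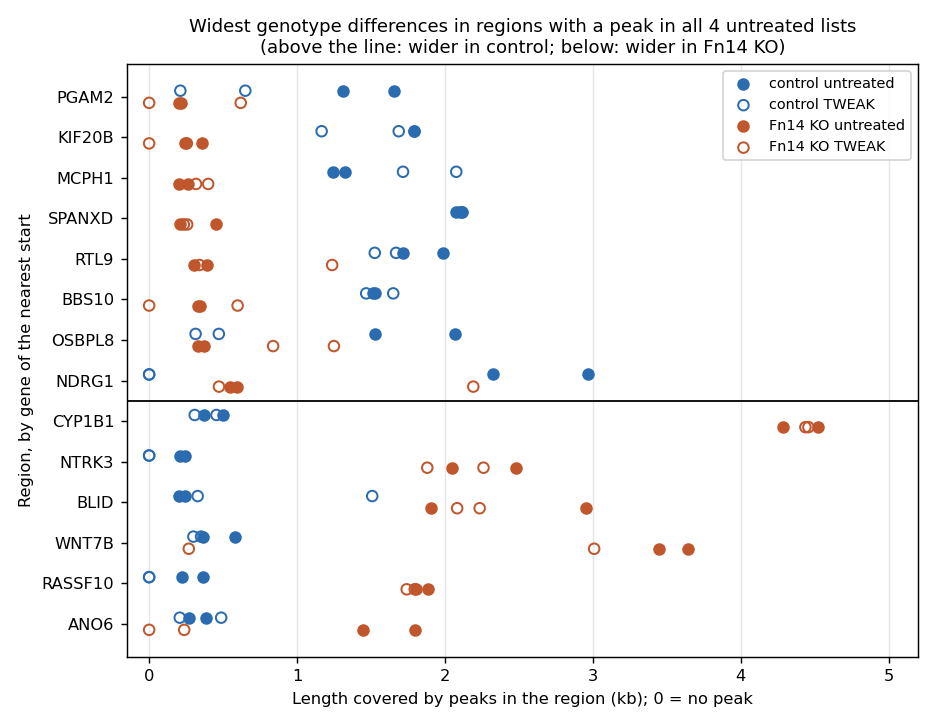
Length covered by peaks (horizontal axis, kb) at the reported regions among the 8 with the largest width ratio in each direction, 1 point per Hs578T list, filled for untreated and open for TWEAK lists. At CYP1B1, NTRK3, BLID and RASSF10 all 4 KO lists lie above all 4 control lists, while at PGAM2, OSBPL8, NDRG1, WNT7B and ANO6 the TWEAK lists of the genotypes overlap or change order.

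Gene groups were then read against the background of 14074 genes nearest to a region, of which 1097 (7.79%) had a control-only and 961 (6.83%) a KO-only region. A region counts for the gene with the nearest start, at any distance. Of 24 genes of Fn14 and NF-κB signalling with a region, BIRC3 and NFKBIZ had a control-only region and NFKB1 a KO-only region, out of 89 regions in the group. These shares were 2.25% and 1.12%, against 2.51% and 2.26% of all regions. An intronic region of NFKBIZ, which encodes the nuclear regulator IκBζ, had a fold enrichment of 3.67 and 3.11 in control and no peak in KO lists, and gave 3.07 and 3.88 in control TWEAK lists with none in KO. A region 37.1 kb from BIRC3, an inhibitor of apoptosis, had 2.83 and 3.42 and was absent after TWEAK in both genotypes. The region 22.96 kb from NFKB1, the p105/p50 subunit gene, had 3.51 and 3.89 in the KO lists and 3.59 and 3.78 in the KO TWEAK lists, with none in control. Over the group's 66 shared regions the median log2 difference in fold enrichment was 0.01, beside 0.03 for all.

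Of 17 AP-1 and MAF factor genes, JUN and MAFK were among those with a KO-only region and none had a control-only region. The 3 KO-only regions were 3.95% of the group's 76 regions, and the one named for JUN lay between genes, 90.6 kb from its start. The MAFK exonic region had a fold enrichment of 3.27 and 2.68 in KO and 2.72 and 2.70 in KO TWEAK lists, with none in control. A region 4.66 kb from JDP2, an AP-1 repressor gene, had a peak at least 2 times wider in control, with a fold enrichment of 4.36 and 4.12 in control and 2.91 and 3.37 in KO lists, and of 7.39 and 7.17 against 3.02 and 2.78 after TWEAK. Of 27 interferon response genes, IFI6 and IFI27 had a control-only region (2.74% of the group's 73 regions) and none a KO-only region, and the IRF1 start was wider in control. All 3 were weak, and the IFI27 region, at 3.25 and 2.72, had a peak in 1 KO TWEAK list. Of 18 cytokine and chemokine genes, LIF alone had a control-only region (1.54% of the group's 65 regions), 58.6 kb from its start. Each of these 3 groups held at most 3 members in a direction.

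Of 27 collagen and matrix genes, 8 had control-only and 3 had KO-only regions. Their 8 control-only and 5 KO-only regions were 3.62% and 2.26% of the group's 221 regions, against 2.51% and 2.26% of all regions, and THBS1, DCN and COL5A1 had both kinds. A region 408 kb from DCN, the proteoglycan decorin, had a fold enrichment of 3.59 and 3.26 in control and 7.49 and 7.42 in control TWEAK lists, and was absent from all 4 KO lists. An intronic region of COL11A1, a fibrillar collagen, did likewise, at 3.61 and 3.09 and then 8.73 and 10.04. A COL4A2 intronic region had 4.95 and 4.50 in control and 3.49 in 1 KO TWEAK list. Matrix proteases and inhibitors had 4 control-only regions at ADAMTS6 and ADAMTS12 and 4 KO-only regions at ADAMTS12 and TIMP3, 3.74% of the group's 107 regions each way. Of 26 genes of epithelial-mesenchymal transition and adhesion, the cadherins CDH2, CDH4, CDH6 and CDH11 had control-only regions, and CDH13 and the integrins ITGAV and ITGA3 had KO-only regions, together 1.99% and 2.49% of that group's 201 regions. The control-only regions assigned to CDH2, CDH6 and CDH11 lay between genes, 479, 2001 and 266 kb from the start. That of CDH4 was intronic.

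The breast identity group held 9 KO-only regions among 175 (5.14%) and 3 control-only regions (1.71%), against 2.26% and 2.51% overall. They fell to 4 genes, with 5 at GATA3, 2 at TP63 and 1 each at ESR1 and EPCAM, and their weaker −log10 q-value lay between 1.14 and 2.61. The region 56.8 kb from EPCAM had 2.90 and 2.90 in KO and 2.60 and 3.59 in KO TWEAK lists, and none in control. The GATA3 regions lay 485 to 1171 kb from its start, and the farther ones are assigned to it only as the nearest gene. GATA3 also had a control-only region, at 5.42 and 3.91. Luminal or epithelial markers overlap this group and gave 7 KO-only and 1 control-only regions of 71.

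Growth factor and receptor genes had 10 control-only and 14 KO-only regions among 420 (2.38% and 3.33%). The latter included 4 that lay 293 to 389 kb from the PDGFC start and 3 at SMAD3, a transducer of TGF-β signals. An intronic region of SMAD6, a gene for an inhibitory SMAD protein, had 4.87 and 4.14 in KO lists and none in control. YAP and TEAD genes had 2 and 2, or 1.98% of the group's regions each way, below the 2.51% and 2.26% of all regions. TEAD1 and CRIM1 had the control-only regions and WWTR1, which encodes TAZ, the KO-only ones. Developmental transcription factors had 9 control-only and 5 KO-only among 434 (2.07% and 1.15%), with the MEOX1 start control-only and KLF5 KO-only. In NAD metabolism, SIRT3 had a control-only region and NAMPT, the rate-limiting enzyme of the NAD salvage pathway, a KO-only one (chr7:106269666-106272691, 2.78 and 2.59 in KO lists) that had no peak in the KO TWEAK lists and one of 2.69 in control TWEAK list 2. Each was 2.33% of the group's 43 regions. Cell cycle and apoptosis genes had 2 control-only regions, assigned to CCND1 and BCL2, and 1 KO-only region, at CDKN1A, of 95 (2.11% and 1.05%). Of 4 endothelial markers, CDH5 and TEK had a control-only and PECAM1 a KO-only region, all more than 10 kb from a start. These were 8% and 4% of the group's 25 regions.

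The central 300 bases of each region were searched on both strands for the AP-1 motif TGANTCA, of which TGAGTCA is one form. More than 2 kb from a start, it was present in 35.7% of control-only regions (32.9% to 38.5%), 30.6% of KO-only regions (27.7% to 33.5%) and 31.4% of all such regions. TGAGTCA alone gave 25.5%, 24.1% and 23.9%. Within 2 kb of a start TGANTCA was present in 29.9% of control-only and 14.5% of KO-only regions, against 9.01%. By strength, the share in control-only regions away from starts was 37.5% where the weaker −log10 q-value was under 2 and 30.2% (17.2% to 46.1%) from 5 upwards. Of the 24 strongest regions, the RNF144A region shown above alone held the motif.

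Other motifs were searched in the same regions away from starts. GGAATG of TEAD factors was found in 21.3% of control-only, 20.1% of KO-only and 21.1% of all regions, TGTGGT of RUNX factors in 24.9%, 27.2% and 24.5%, and the NF-κB consensus in 4.13%, 4.24% and 4.01%. AACNGGTT of grainyhead-like factors was found in 1.72%, 1.72% and 2.18%, and CCGGAAG of ETS factors in 1.55%, 2.02% and 1.62%. GGGCGG of SP factors was found in 5.50% of control-only and 9.28% of KO-only regions, against 7.93%. At starts, KO-only regions had a median of 9 CG dinucleotides in their central 300 bases and control-only regions 4, where all start-site regions had 17. Away from starts, 8 or more CG dinucleotides were found in 10 of the 31 KO-only regions (32.3%) with a weaker −log10 q-value from 5 upwards. They were found in 12.5% of KO-only regions under 2 and in 13.1% of all regions. The corresponding shares of control-only regions were 18.6%, or 8 of 43, and 7.03%. No intervals were computed for these CG shares, and the part of repeated sequence in them was not tested. These shares describe letters in a window and not bound sites.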

How the data were processed

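H3K27ac ChIP-seq was compared between 2 control and 2 Fn14 KO samples of untreated Hs578T cells, grouped by their titles. Per the study's methods, the authors used Trimmomatic on the reads, Bowtie2 for alignment (hg38), MACS2 with input subtraction for peaks and bedtools to take out blacklisted regions. The versions are not given in the sources used here. Each sample has 1 deposited peak list, called per sample, whose layout is that of MACS2 broad calling. The deposited ratio is fold enrichment over background, and the deposited −log10 p-values and q-values come from the same caller. The deposited score is the −log10 q-value times 10 as an integer and was not used. The lists hold no read counts, so depth is unknown.

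Peaks of all 16 lists sharing 1 bp were merged, and regions found in fewer than 2 lists were dropped. Fold enrichment and −log10 q of a region are the highest of a list's peaks there. Genes were the protein-coding genes of GENCODE 44. All 24 chromosomes named in the lists match the hg38 reference, with no end past its length. Region classes were start site (within 2 kb), exon, intron and between genes. Per-list values were compared by exact permutation over the 6 arrangements. Shares carry 95% Clopper-Pearson intervals. Members and gene lists were chosen with earlier results of these data known. Named regions were the 12 of each set with the highest lower −log10 q, the 5 stretches with most members, the 8 largest width ratios where the wider genotype covered at least 500 bp, and genes of the fixed lists. The window scan of fold enrichment and the motifs other than AP-1 were added after the data were seen. The calls, stretches and widths were tested on simulated lists. The labels name replicates but no shared origin, so p-values measure the spread between these samples. Python 3.11.15, pandas 2.3.3, numpy 2.4.6 and scipy 1.17.1 were used. Read-based tests were not run, since no reads were used here. A few named genes and 1 sequence are not reported here.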

Additional observations from a re-analysis of the deposited data

How the results depend on the processing

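Peak lists carry no depth, so a weak peak can be called in one list and missed in another, and most members were weak. No call here could pass a threshold of 0.05, since 6 arrangements of 4 lists allow no p under 0.3333. Of 115 recomputed values, 62 were labelled unchanged. For counts this meant a change of at most 1.5 times, and for shares a value within the main interval. For TWEAK-list differences it meant a change within the spread of the lists. The differences per list were held to no limit beyond their sign. The replicate block leaves the counts as they are. Counts of control-only and KO-only regions moved by less than 1.5 times under a merge of the 4 lists alone, a −log10 q of at least 2 (1172 and 822), trimmed lists, a 10% cover and absence within 1 kb.

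The start-site share became 4.03% and 8.33% within 1 kb and 12.2% and 19.8% within 5 kb (control-only, then KO-only), and 8.11% in control-only regions at −log10 q of at least 2. The clustered share became 10.8% and 16.03% within 50 kb and 47.1% and 53.0% within 500 kb, and 19.95% in KO-only regions at −log10 q of at least 2. The AP-1 share became 45.8% and 37.9% over 500 bases and 25.5% and 22.7% for TGAGTCA. Regions wider in control numbered 385 at 1.5 times, 17 at 3 times and 53 at −log10 q of at least 2, and those wider in KO 559, 23 and 100. The distance, window, motif and width limits are wider or narrower by construction, and the cause of the moves at −log10 q of at least 2 was not tested.

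Leaving out each list in turn asks for fewer lists and so raises counts. It gave 1915 to 2997 control-only and 1901 to 2150 KO-only regions, start-site shares of 6.84% to 8.24% and 10.7% to 12.9%, clustered shares of 22.0% to 33.5% and 29.8% to 31.2%, and AP-1 shares of 34.5% to 37.4% and 28.7% to 30.4%. The TWEAK-list difference ran from 17.8 to 31.6 percentage points in control-only regions, with 17.8 without KO list 1, where it fell most, and from -46.6 to -35.8 in KO-only regions. Wider regions numbered 296 to 650 in control and 379 to 885 in KO. The differences per list, KO minus control, ran from -1685 to -11 peaks and from 1.31 to 3.60 Mb. The median fold enrichment difference of 0.0976 ran from -0.0327, without KO list 1, where it reversed, to 0.228, and the cause was not tested.

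Same-numbered lists did not deviate together (r = -0.0756 between genotypes over 36779 shared regions), so the numbers were not taken as pairs. With a replicate block the calls were identical by construction, at 1242 and 1117 regions, and the differences of -848 peaks, 2.45 Mb and 0.0976 in median fold enrichment had exact permutation p of 1.0, 0.5 and 0.5.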

Other observations

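Regions that TWEAK gained in control MDA-MB-231 cells were found among the Hs578T control-only regions at 124 of 1242 places (9.98%, and 4.03% of the 3079 gained regions). Among KO-only regions there were 47 of 1117 (4.21%, and 1.53% of the gained regions), and among all 49465 regions 1227 (2.48%). Regions that TWEAK removed in MDA-MB-231 were found at 5.15% of control-only and 6.27% of KO-only regions, against 4.49% of all. The 2 lines share no list. A region could count as gained only without a peak in either untreated MDA-MB-231 control list. Those lists marked 34.4% and 49.9% of control-only, 16.4% and 28.7% of KO-only and 74.2% and 81.5% of all regions. The sets thus differed in how many regions could be gained, removed or called by genotype in MDA-MB-231. The shares given here were not corrected for this. After TWEAK, control-only regions of Hs578T had a peak in 48.4% and 48.7% of cases in the MDA-MB-231 control lists and in 37.2% and 35.2% in the MDA-MB-231 KO lists, while KO-only regions gave 14.1% and 17.3% against 15.9% and 16.6%, and all regions 73.97% and 75.03% against 74.9% and 73.6%. Between untreated lines, 57 Hs578T control-only regions (4.59%) were control-only and 58 (4.67%) were KO-only in MDA-MB-231, and of the KO-only regions 44 (3.94%) were control-only and 29 (2.60%) were KO-only there, against 1.82% and 1.76% of all regions. At PECAM1, an endothelial marker, the start-site peak had a fold enrichment of 4.98 in control list 1 and 5.58 in KO list 1, but 18.4 and 18.6 in the lists numbered 2, a difference between lists and not between genotypes.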
